A study of Mus musculus with 16 samples.

Results

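RNA for voltage-gated calcium channels, voltage-gated sodium channels, the sodium leak channel NALCN and transient receptor potential (TRP) channels was examined in astrocyte ribosomes and in whole striatum of the mouse. The members were all listed genes whose symbols begin with Cacn, with Scn followed by a number and a or b, or with Trpa, Trpc, Trpm or Trpv followed by a number, together with Nalcn. The name pattern matched 46 rows, and Trpc4ap, which encodes a protein that binds a TRP channel, was left out as no channel. This left 45 of the 13277 listed genes. They were 22 calcium channel genes, 11 sodium channel genes, Nalcn and 11 TRP channel genes. RefSeq names 63 protein-coding genes under the same rule, and the other 18, among them Trpa1, Trpv1 and Trpv4, were not analysed here.

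Voltage-gated calcium channels open when a cell depolarises and let in the calcium that drives transmitter release, gene activity and pacemaking, while voltage-gated sodium channels carry the upstroke of the action potential. Each is built around a pore-forming alpha subunit, with auxiliary subunits that set its amount at the membrane and its gating. NALCN is a leak channel that depolarises neurons at rest, and TRP channels are cation channels opened by receptors, lipids, temperature or oxidative stress. Striatal projection neurons and interneurons fire action potentials, whereas astrocytes signal mainly through calcium released from internal stores and entering through other routes.

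The mice were adult offspring of a RiboTag line on a B6 background and an Aldh1l1-Cre/ERT2 line of FVB origin that had been backcrossed to C57BL/6N. In RiboTag mice a ribosomal protein gains a haemagglutinin tag wherever Cre has acted. Aldh1l1 is a gene of astrocytes, and any other cell in which its promoter drove Cre would carry the tag as well. All 8 mice carried both alleles and all 8 received an adeno-associated virus. It encoded a control protein in 4 mice (Y481, Y482, Y483 and Y485) and hPMCA2w/b in the other 4 (Y486, Y487, Y489 and Y490). The latter is a human calcium pump of the plasma membrane that suppresses calcium signals in astrocytes, and these mice are called PMCA mice here. Each mouse gave 1 input library from cleared lysate of whole striata and 1 immunoprecipitated (IP) library from the RNA on tagged ribosomes, so the 16 libraries formed 4 groups of 4. Values of single libraries are given in the order of mice above.

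Levels are log2 CPM as the authors deposited them, that is, reads corrected for library size, with 1 read worth 1.59 to 4.46 CPM over libraries of 198462 to 686343 reads. A log2 fold change is a difference of group means on that scale, its SE comes from limma, and a gene was called at a Benjamini-Hochberg adjusted p under 0.05. Levels are not compared between genes, since gene lengths were not used. The precipitate matched its label: all 15 astrocyte markers were higher in IP in both treatments, with list medians of 4.02 in control and 3.67 in PMCA mice. All 12 pan-neuronal markers and all 11 markers of striatal projection neurons tested were lower in IP in both treatments. Neuronal RNA was still present there, since the pan-neuronal markers summed to 1082 to 1448 CPM in control IP and 1038 to 1146 CPM in PMCA IP, against 5312 to 6571 CPM in input, and none was at 0 reads in any library.

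Promoters of 3 genes are printed because they belong to the single channel gene that was higher in IP and to a pair of neighbouring genes that were among the most depleted. Trpm3 spans chr19:22137797-22995410 and has a pair of start sites in the RefSeq promoter table. Scn2b (chr9:45117876-45130070) and Scn4b (chr9:45138624-45154155) lie on the same chromosome with 8553 bases and no protein-coding gene between them. Each line gives the 250 bases before a start site on the plus strand, from RefSeq on GRCm38.p6, with CpG dinucleotides in capitals. The windows are chr19:22138796-22139045 and chr19:22447958-22448207 for Trpm3, chr9:45117626-45117875 for Scn2b and chr9:45138374-45138623 for Scn4b.
Trpm3 upstream start: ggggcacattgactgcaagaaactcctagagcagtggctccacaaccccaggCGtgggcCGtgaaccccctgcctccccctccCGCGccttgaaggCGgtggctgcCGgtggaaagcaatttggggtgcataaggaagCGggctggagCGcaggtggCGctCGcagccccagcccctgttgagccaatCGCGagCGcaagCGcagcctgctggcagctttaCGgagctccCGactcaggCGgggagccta
Trpm3 downstream start: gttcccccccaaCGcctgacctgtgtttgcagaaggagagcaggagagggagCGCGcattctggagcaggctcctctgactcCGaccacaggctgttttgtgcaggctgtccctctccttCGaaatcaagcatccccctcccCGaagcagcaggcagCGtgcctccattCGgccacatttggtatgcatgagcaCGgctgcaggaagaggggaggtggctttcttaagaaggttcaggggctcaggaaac
Scn2b: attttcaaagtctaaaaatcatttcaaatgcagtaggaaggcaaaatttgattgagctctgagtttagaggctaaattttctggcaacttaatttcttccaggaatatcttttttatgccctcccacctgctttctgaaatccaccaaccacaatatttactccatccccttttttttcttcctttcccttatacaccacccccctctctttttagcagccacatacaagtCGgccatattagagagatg
Scn4b: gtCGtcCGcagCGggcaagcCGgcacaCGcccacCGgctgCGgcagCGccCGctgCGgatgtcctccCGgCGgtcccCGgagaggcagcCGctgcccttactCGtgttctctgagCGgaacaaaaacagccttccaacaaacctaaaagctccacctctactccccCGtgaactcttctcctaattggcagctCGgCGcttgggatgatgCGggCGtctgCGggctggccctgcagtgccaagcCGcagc

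The neighbours differed in base composition although both were lower in IP. The Scn2b window held 1 CpG and 38.4% G and C, and the Scn4b window held 23 CpG and 66.0% G and C. The Trpm3 windows held 17 and 9 CpG, with 66.4% and 59.2% G and C. Over 48 promoter windows of 34 members, the median share of G and C was 56.8%, against 52.4% over all 32851 windows in the table. Trpm3 also contains the gene of the microRNA miR-204, on the same strand at chr19:22750610-22750631 for its mature 5p arm. The arm is printed, with its seed in capitals, because it lies within this gene, and it was not measured here.
mmu-miR-204-5p: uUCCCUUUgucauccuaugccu

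Short motifs were searched on both strands of the 250-base windows, and the printed windows held none of those named here. TATAAA, the TATA box, was in 8.33% of member windows and 12.4% of all windows. GGGCGG, the GC box, was in 33.3% and 32.7%. The cAMP response element TGACGTCA was in 0% and 1.55%, and its core TGACG, which lies within it, in 16.7% and 17.8%. The left part of the neuronal silencing element, TTCAGCACC, was in 0% and 0.301%. The right part, GGACAGCG, was in 2.08%, which is the single window of Cacnb1, and 0.992%. These shares are descriptions of letters in a short window.

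Most channel RNA was lower on astrocyte ribosomes than in whole striatum. In control mice 26 of the 32 members tested were called lower in IP, 1 was called higher and 5 did not pass, at a median log2 fold change of -2.40. Over all 8091 genes tested in the same comparison, 26.1% were called lower and 27.3% higher, and the median was 0.06. In PMCA mice 27 of 32 members were lower, 1 was higher and 4 did not pass, at a median of -2.25, where 24.8% of all genes were lower, 24.9% were higher and the median was 0.02. In bulk RNA of this kind, fewer cells of a type and less RNA per cell cannot be told apart, and a lower value in IP is a share of precipitated RNA and not an absolute amount per astrocyte. The filter left 13 members untested, and the counts cover the 32 that passed it. Of these, 10 had under 4 IP libraries at the level needed and passed only with the help of input libraries. Among the 10, Cacng2, Cacng3, Cacng4 and Trpm2 passed through input libraries alone, with no IP library at that level. The rest were Cacnb2, Cacnb3, Cacng7, Cacng8, Scn3b and Trpc1. A call of lower in IP for these 10 is not independent of that choice, and they stay in the counts of members.

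**Figure D1:**
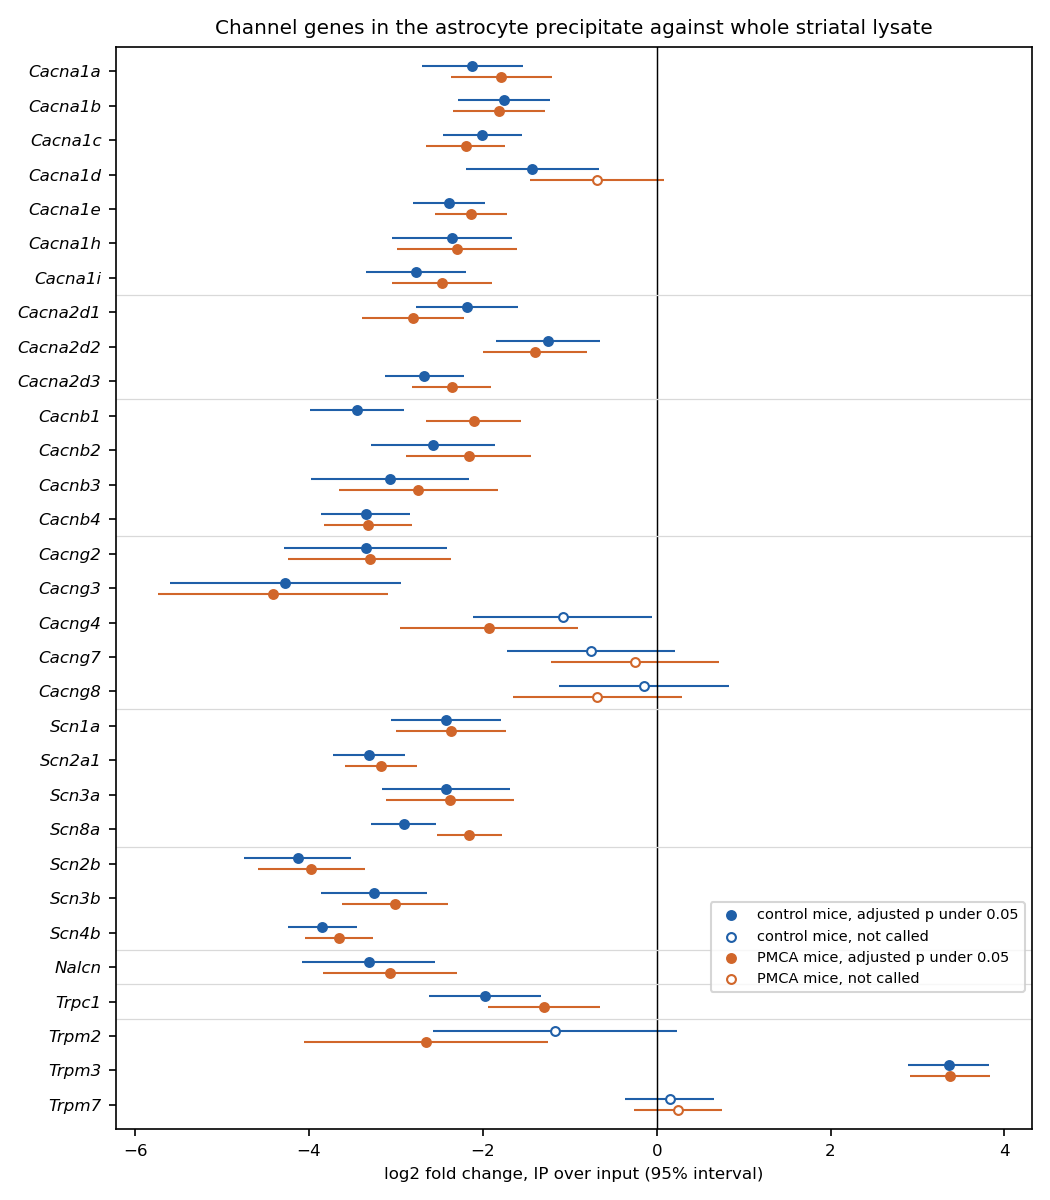
Log2 fold change of IP over input for 31 of the 32 members tested, with 95% intervals, in control mice (blue) and PMCA mice (orange), where a filled point was called by limma and an open point was not. Trpm3 is the one gene to the right of 0 with both points filled, and 24 genes are filled to the left of 0 in both treatments.

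Most members were called alike in both treatments. Of the 32, 25 were called lower in both, 1 (Trpm3) was called higher in both, Cacna1d was called in control mice alone, Cacng4 and Trpm2 were called in PMCA mice alone, and Cacng7, Cacng8 and Trpm7 were called in neither. Over all 8091 genes, 21.0% were called lower in both treatments and 21.3% higher in both. The difference of enrichment between treatments was tested directly and passed for none of these genes. All 25 shared members were at least 2-fold lower in both treatments, 20 were at least 4-fold lower and 8 at least 8-fold lower. Mouse by mouse, 26 of the 32 were lower in IP than in the input of the same mouse in all 8 mice, Trpm3 was higher in all 8, and 5 were mixed. Of all 8091 genes, 23.2% were lower in all 8 mice and 24.4% higher.

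The pore-forming calcium channel subunits of the Cacna1 family were lower in IP for all 7 genes tested in control mice and for 6 of them in PMCA mice, with medians of -2.12 and -2.14. Cacna1e, which forms R-type channels, stood at 9.29, 9.15, 9.51 and 9.23 log2 CPM in control input and 7.17, 6.22, 7.16 and 7.08 in control IP. Values of PMCA mice were 9.59, 9.33, 9.38 and 9.15 in input and 7.15, 6.89, 7.06 and 7.80 in IP. Every IP library lay below every input library. The log2 fold change was -2.39 in control mice (SE 0.20, adjusted p = 1.12e-10, n = 4 and 4, limma) and -2.14 in PMCA mice (SE 0.20, adjusted p = 1.14e-09).

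The presynaptic channels that trigger transmitter release were lower as well. Cacna1a, the P/Q-type channel, was 4.35-fold lower in control IP (adjusted p = 4.62e-07, limma) and 3.45-fold lower in PMCA IP (7.40e-06). Cacna1b, the N-type channel, was 3.38-fold and 3.51-fold lower (2.04e-06 and 1.44e-06). The T-type channels, which open at low voltage, followed with Cacna1h at 5.13-fold and 4.91-fold lower (1.38e-06 and 2.33e-06) and Cacna1i at 6.82-fold and 5.55-fold lower (3.28e-09 and 3.07e-08). Cacna1g, the other T-type gene, had 15 reads in control input and 10 in control IP over the group, too few for the test.

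The L-type channels, which couple depolarisation to gene activity and pacemaking, differed in how they passed. Cacna1c was 4.02-fold lower in control IP and 4.59-fold lower in PMCA IP (adjusted p = 1.61e-08 and 3.42e-09, limma), with no overlap between fractions. Cacna1d stood at 6.56, 5.67, 6.62 and 5.85 log2 CPM in control input and 3.98, 5.19, 4.95 and 4.86 in control IP, which did not overlap. The PMCA libraries gave 6.45, 5.19, 6.67 and 6.03 in input and 5.22, 4.70, 5.52 and 6.16 in IP, which did overlap, and in Y490 the IP value was the higher one. Its log2 fold change was -1.43 in control mice (SE 0.37, adjusted p = 0.00209, limma) and -0.69 in PMCA mice (SE 0.37, adjusted p = 0.132). The difference between treatments was 0.74 (95% interval -0.34 to 1.83, adjusted p = 0.913). With library totals in place of TMM sizes Cacna1d passed in PMCA mice as well (-0.95, adjusted p = 0.0365), as it did with voom weights (-0.75, adjusted p = 0.0474).

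Cacna2d genes encode the extracellular alpha2delta subunits, which raise the number of channels at the membrane and, for some members, bind gabapentin. All 3 tested members were lower in both treatments. Cacna2d3 stood at 8.20, 8.36, 8.36 and 8.79 log2 CPM in control input and 6.02, 5.36, 5.30 and 6.34 in control IP. In PMCA mice the values were 8.31, 8.38, 8.32 and 8.54 in input and 6.35, 5.74, 5.93 and 6.09 in IP. The fractions were apart in both treatments, with log2 fold changes of -2.67 and -2.36 (SE 0.22 each, adjusted p = 7.01e-11 and 9.65e-10, limma). Cacna2d1 was 4.55-fold lower in control IP and 6.99-fold lower in PMCA IP (3.61e-07 and 5.19e-09). Cacna2d2 was the least depleted of the 3, at 2.38-fold and 2.64-fold lower (6.62e-04 and 2.24e-04). Cacna2d4 had 10 reads over all 16 libraries.

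Cacnb genes encode the intracellular beta subunits, which bring the pore to the membrane, and all 4 were lower in both treatments, with medians of -3.21 and -2.45. Cacnb4 stood at 9.10, 8.92, 8.70 and 8.80 log2 CPM in control input and 6.12, 4.78, 5.30 and 5.91 in control IP. In PMCA mice it stood at 8.76, 8.85, 8.83 and 8.88 in input and 5.64, 5.35, 4.94 and 6.09 in IP. All IP libraries lay below all input libraries, and the log2 fold changes were -3.35 and -3.32 (adjusted p = 8.16e-12 and 1.15e-11, limma). Cacnb1 was 10.9-fold lower in control IP and 4.30-fold lower in PMCA IP (1.61e-11 and 1.99e-07). Cacnb2 was 5.95-fold and 4.48-fold lower (6.02e-07 and 9.70e-06), and Cacnb3 8.38-fold and 6.70-fold lower (1.66e-06 and 9.95e-06). Cacnb2 and Cacnb3 passed the filter with the help of input libraries, so their calls are not independent of that choice.

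The Cacng family was mixed. Most of its brain members are known as TARPs, partners that carry AMPA-type glutamate receptors to the synapse, although the family is named for the gamma subunit of a muscle calcium channel. Cacng2, the TARP stargazin, was 10.2-fold lower in control IP and 9.87-fold lower in PMCA IP (adjusted p = 6.68e-07 and 9.40e-07, limma). Cacng2 and Cacng3 were tested through input libraries alone, so their calls are not independent of that choice. Cacng3 and Scn2b, a sodium channel gene described further on, had the lowest fitted changes of all members. Cacng3 stood at 7.71, 6.98, 6.55 and 6.90 log2 CPM in control input and 3.64, 1.52, 2.83 and 3.07 in control IP, and at 6.72, 6.29, 6.03 and 6.48 in PMCA input and 3.74, 2.28, 2.50 and -0.66 in PMCA IP. The last value is a library with 0 reads, the only such IP library among the 32 members tested, so the fitted change in PMCA mice depends on the prior count that was added to the reads. The log2 fold changes were -4.27 and -4.41 (SE 0.64 each, adjusted p = 3.95e-06 and 2.83e-06, limma). With a prior count of 2 reads they were -3.55 and -3.19, without Y482 the control value was -3.88, and without Y490 the PMCA value was -3.51. Scn2b had -3.92 and -3.78 with the prior count of 2 reads, so its order against Cacng3 was not fixed.

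Cacng4, Cacng7 and Cacng8 were the calcium channel genes least depleted in control IP. Cacng7 stood at 4.99, 5.67, 4.58 and 5.70 log2 CPM in control input and 4.50, 4.21, 5.45 and 3.76 in control IP, and at 5.67, 4.62, 4.00 and 5.83 in PMCA input and 4.52, 5.35, 3.97 and 5.30 in PMCA IP. The fractions overlapped in both treatments, and the log2 fold changes were -0.76 and -0.25 (95% intervals -1.72 to 0.21 and -1.21 to 0.72, adjusted p = 0.181 and 0.695, limma). Without Y483 the control value was -1.30 and passed (adjusted p = 0.0433), and without Y486 the PMCA value was 0.0568.

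Cacng8 lies 25820 bases beyond Cacng7 on chromosome 7, with no protein-coding gene between them. It stood at 4.52, 3.73, 4.86 and 4.93 log2 CPM in control input and 5.42, 4.03, 3.76 and 4.23 in control IP, and at 5.05, 4.62, 5.11 and 5.22 in PMCA input and 4.71, 5.01, 4.18 and 3.37 in PMCA IP. Here too the fractions overlapped, at log2 fold changes of -0.15 and -0.68 (adjusted p = 0.818 and 0.243, limma), and the control value turned to 0.168 without Y483 and 0.0354 without Y485. Cacng4 had log2 fold changes of -1.08 (adjusted p = 0.0696) and -1.93 (adjusted p = 0.00210), and the control value passed with library totals (-1.29, adjusted p = 0.0305) and with voom weights (-1.20, adjusted p = 0.0319). Cacng4 was tested through input libraries alone, so its call in PMCA mice is not independent of that choice. Cacng5 had 12 IP and 5 input reads in control mice and 7 and 9 in PMCA mice.

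**Figure D2:**
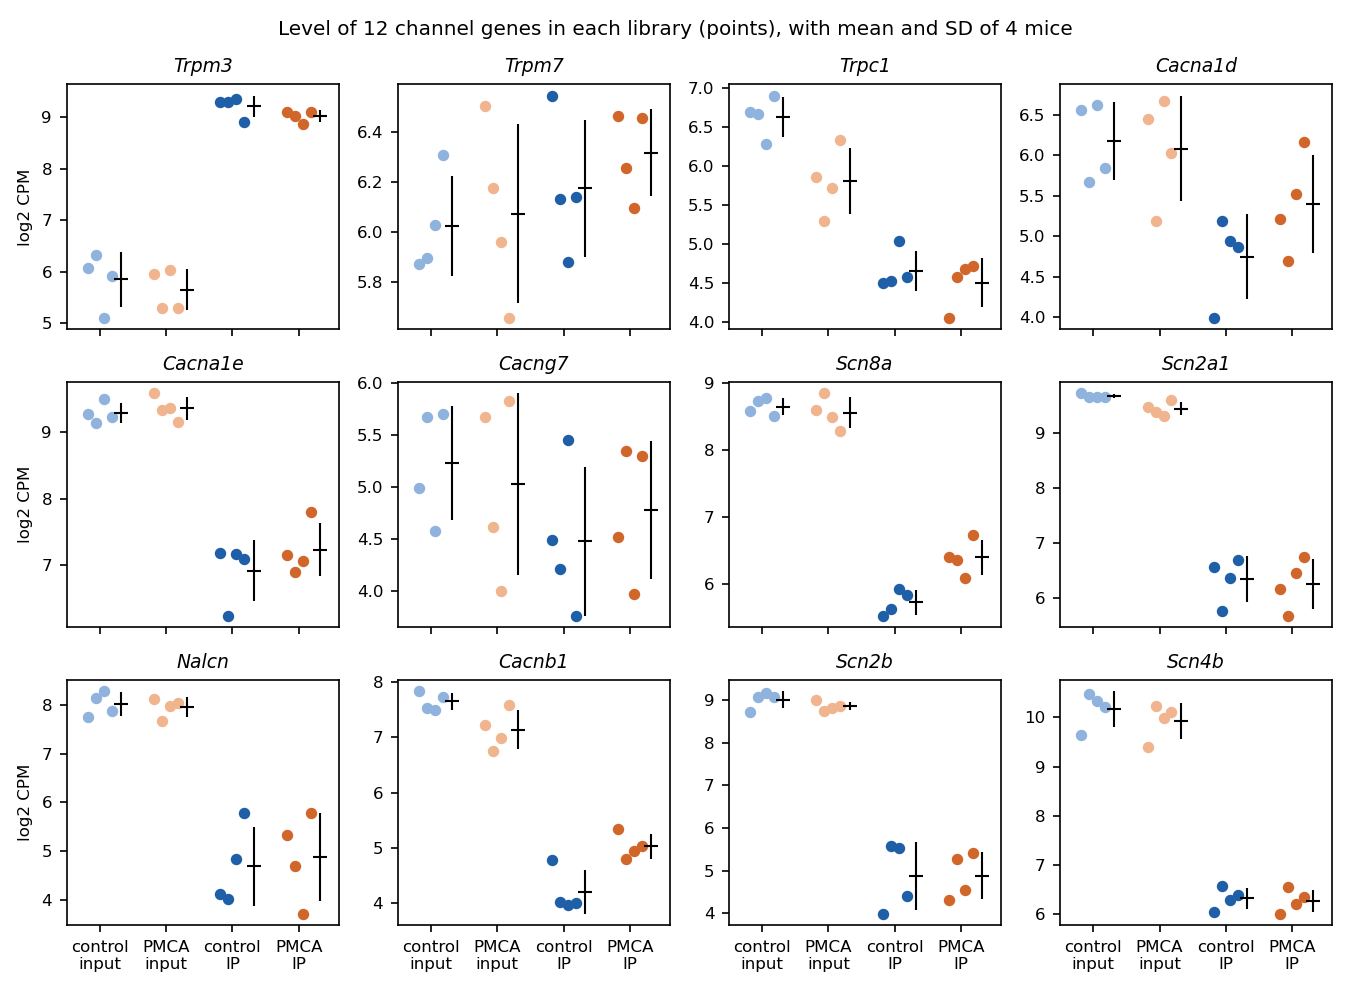
Level in log2 CPM of 12 channel genes in each of the 16 libraries, by group, with the mean and SD of 4 mice as a bar; each panel has its own vertical scale. Trpm3 rises from 5.09 to 6.33 in input to 8.87 to 9.36 in IP, Trpm7 and Cacng7 overlap between fractions, and the sodium channel genes lie lower in every IP library.

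The pore-forming sodium channel genes were lower in IP in all 4 members tested, with medians of -2.67 in control and -2.37 in PMCA mice. Scn2a1, whose current symbol is Scn2a, encodes a main channel of axons. It stood at 9.71, 9.65, 9.64 and 9.65 log2 CPM in control input and 6.57, 5.76, 6.37 and 6.70 in control IP, and at 9.47, 9.38, 9.31 and 9.60 in PMCA input and 6.17, 5.68, 6.47 and 6.74 in PMCA IP. Even the highest IP library lay more than 2 log2 units below the lowest input library, and IP held 10.1% and 11.1% of the input level (adjusted p = 1.29e-13 and 3.67e-13, limma). Scn8a, the channel of the axon initial segment and nodes of Ranvier, was 7.53-fold lower in control IP and 4.46-fold lower in PMCA IP (2.60e-13 and 1.43e-10).

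Scn1a, known for its role in fast-spiking interneurons, was 5.38-fold and 5.15-fold lower (adjusted p = 1.92e-07 and 3.36e-07, limma). Scn3a, a channel of the developing brain, was 5.36-fold and 5.20-fold lower (2.33e-06 and 3.51e-06). Scn1a, Scn2a1 and Scn3a lie in 1 cluster on chromosome 2 that also holds Scn9a and Scn7a. Scn9a had 10 input and 5 IP reads in control mice and 21 and 18 in PMCA mice, and Scn7a had 1 and 4, and 5 and 7.

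The sodium channel beta subunits, single-pass membrane proteins that set gating and help cells adhere, were the subfamily with the lowest median in both treatments among those with 3 or more tested members, at -3.55 and -3.33, and all 4 were lower. Scn4b, a subunit abundant in striatal projection neurons, stood at 9.65, 10.48, 10.34 and 10.21 log2 CPM in control input and 6.05, 6.56, 6.29 and 6.38 in control IP. PMCA mice had 9.39, 10.22, 9.99 and 10.11 in input and 6.01, 6.54, 6.20 and 6.34 in IP. Y481 and Y486 had the lowest value of their groups in both fractions, and Y482 and Y487 the highest. IP held 6.95% of the input level in control and 7.94% in PMCA mice (log2 fold changes -3.85 and -3.66, SE 0.19 each, adjusted p = 2.46e-15 and 9.04e-15, limma).

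Scn2b, its neighbour with the promoter poor in CpG shown above, stood at 8.71, 9.06, 9.17 and 9.08 log2 CPM in control input and 3.98, 5.57, 5.52 and 4.41 in control IP. Values of PMCA mice were 8.99, 8.75, 8.82 and 8.86 in input and 4.30, 5.27, 4.54 and 5.41 in IP. The input values lay close together and the IP values were spread over more than 1 log2 unit, and the fractions were far apart. IP held 5.71% and 6.36% of the input level (log2 fold changes -4.13 and -3.97, SE 0.30 each, adjusted p = 1.35e-11 and 3.24e-11, limma). Scn3b was 9.51-fold and 8.04-fold lower (5.07e-10 and 2.55e-09). It passed the filter with the help of input libraries, so its calls are not independent of that choice.

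Nalcn stood at 7.75, 8.14, 8.28 and 7.87 log2 CPM in control input and 4.13, 4.03, 4.84 and 5.78 in control IP. The PMCA libraries gave 8.12, 7.67, 7.98 and 8.04 in input and 5.34, 4.70, 3.72 and 5.79 in IP. All IP libraries lay below all input libraries, at log2 fold changes of -3.31 and -3.07 (SE 0.37 each, adjusted p = 6.97e-08 and 2.66e-07, limma). Genes of its complex were lower too. Unc79 and Unc80, large proteins that hold the channel complex together, had log2 fold changes of -2.03 and -2.10 in control mice and -1.72 and -1.70 in PMCA mice, all called. The auxiliary gene Fam155a had 38 input and 4 IP reads in control mice and 52 and 5 in PMCA mice. It passed in PMCA mice alone (adjusted p = 0.00739, limma). With so few IP reads Fam155a was tested through input libraries alone, so this call is not independent of that choice.

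Among TRP channels, Trpm3 was the single member of all 32 that was called higher in the precipitate. Its channel is opened by heat and by the neurosteroid pregnenolone sulfate. It stood at 6.08, 6.33, 5.09 and 5.91 log2 CPM in control input and 9.29, 9.29, 9.36 and 8.91 in control IP. In PMCA mice it stood at 5.95, 5.30, 6.03 and 5.30 in input and 9.09, 9.02, 8.87 and 9.11 in IP. Every IP library lay more than 2 log2 units above every input library, with 13 to 22 reads per input library and 186 to 372 reads in each control IP library.

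The log2 fold change of Trpm3 was 3.36 in control mice (SE 0.23, adjusted p = 1.00e-12, limma) and 3.38 in PMCA mice (SE 0.23, adjusted p = 1.08e-12), that is 10.3-fold and 10.4-fold. The 95% intervals ran from 7.45-fold to 14.2-fold and from 7.53-fold to 14.3-fold. The 15 astrocyte markers tested had a median of 4.02 in control mice, and Trpm3 lay at the lower end of their values. Ependymal markers moved the same way, with the 3 listed genes summing to 8.91 to 21.0 CPM in control input and 32.05 to 62.1 CPM in control IP, and to 6.15 to 57.7 and 67.7 to 142 CPM in PMCA mice. Ccdc153 was at 0 reads in all 4 control input libraries. The part of ependymal cells in the Trpm3 value was not tested.

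Trpm7, a channel fused to a kinase that carries magnesium and calcium in most cell types, had 13 or more reads in every library. It stood at 5.87, 5.89, 6.03 and 6.31 log2 CPM in control input and 6.54, 6.13, 5.88 and 6.14 in control IP, and at 6.50, 6.18, 5.96 and 5.65 in PMCA input and 6.46, 6.26, 6.09 and 6.45 in PMCA IP. The fractions overlapped, with log2 fold changes of 0.15 (95% interval -0.36 to 0.66, adjusted p = 0.643, limma) and 0.24 (-0.26 to 0.75, adjusted p = 0.437). The intervals lie within 2-fold in either direction, and the sign turned with library totals in place of TMM sizes, to -0.0582 and -0.0189.

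Trpm2, a channel opened by ADP-ribose under oxidative stress and known from microglia as well as neurons, stood at 3.81, 5.67, 4.41 and 4.08 log2 CPM in control input and 3.82, 2.88, 3.51 and 3.07 in control IP. PMCA mice had 5.33, 5.60, 4.47 and 5.38 in input and 1.15, 1.45, 4.18 and 3.37 in IP. The fractions overlapped in control mice and were apart in PMCA mice, where Y486 and Y487 had 1 IP read each. The log2 fold change was -1.17 in control mice (SE 0.68, adjusted p = 0.153, limma) and -2.66 in PMCA mice (SE 0.68, adjusted p = 0.00206). It was the member closest to the filter, with the level needed for testing in exactly 4 libraries, the fewest the filter allows. All 4 were inputs, 3 of them from PMCA mice, so the gene was tested because of the group in which it was high, and its call in PMCA mice is not independent of that choice. Trpc6, with 3, was the nearest member outside it.

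Trpc1, a subunit of receptor-operated and store-operated channels, was the single Trpc gene tested. It stood at 6.69, 6.66, 6.29 and 6.90 log2 CPM in control input and 4.50, 4.53, 5.04 and 4.58 in control IP, and at 5.87, 5.30, 5.72 and 6.33 in PMCA input and 4.05, 4.57, 4.68 and 4.72 in PMCA IP. IP lay below input in every library, at log2 fold changes of -1.97 (SE 0.31, adjusted p = 6.27e-06, limma) and -1.30 (SE 0.31, adjusted p = 0.00112). Trpc1 passed the filter with the help of input libraries, so these calls are not independent of that choice.

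The other 5 Trpc genes, Trpm4 and Trpv2 were read too rarely for the test, and the reads of those named here were summed over the 4 libraries of a group with 95% counting intervals. These intervals cover counting error only, not the spread between mice, and the folds compare shares of all reads. Trpc5 had 13 input and 0 IP reads in control mice and 10 and 3 in PMCA mice. By the 95% counting interval its control value was at least 4.72-fold lower. With the group's IP set to a floor of 3 reads it was 6.72-fold lower. Trpc4 had 15 and 9 reads in control mice (2.58-fold lower, interval 1.06 to 6.70) and 15 and 2 in PMCA mice (9.70-fold lower, interval 2.26 to 87.4). Without Y487 the PMCA value of Trpc4 was 17.6-fold, and without Y490 it was 5.61-fold. Trpc6 was 2.13-fold lower (1.22 to 3.77) and 3.51-fold lower (1.41 to 9.88). In control IP, Y481 alone held 18 of the 24 reads of Trpc6. Its control ratio was 6.08-fold lower without Y481 and 1.34-fold lower without Y483, and its PMCA ratio 1.97-fold without Y489 and 6.01-fold without Y490, so the size rests on single mice. Between fractions, the libraries of Trpc4 and Trpc5 overlapped in PMCA mice alone, and those of Trpc6 overlapped in both.

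For Trpc7, Trpm4 and the control value of Trpv2, the intervals held 1. Trpv2, the only Trpv gene listed, had 8 input and 13 IP reads in control mice and 17 and 5 in PMCA mice, where its ratio was 4.40-fold lower in IP (interval 1.56 to 15.2) and its libraries overlapped. A difference of Trpv2 between treatments was not tested. Over 11 TRP genes together the summed level was 346 ± 47.1 CPM in control input and 735 ± 94.5 CPM in control IP (SD, n = 4 each), and 288 ± 25.0 and 652 ± 49.2 CPM in PMCA mice. Trpm3 carried the rise, with 1141 of the TRP reads in control IP and 69 in control input. The other 10 TRP genes together went the opposite way, from 286 ± 32.8 CPM in input to 138 ± 30.2 CPM in IP in control mice and from 237 ± 14.7 to 131 ± 21.2 CPM in PMCA mice. The other 34 members summed to 7370 ± 281 CPM in control input and 1109 ± 63.7 CPM in control IP, and to 6850 ± 289.7 and 1203 ± 211 CPM in PMCA mice. Long transcripts give more reads, so these sums weight long genes more, and they are given as descriptions.

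Most channel genes lay above the median of the neuronal markers. In control mice the 12 pan-neuronal markers ranged from -4.70 to -0.36 with a median of -3.70, and 29 of the 32 members lay above that median, with Cacng3, Scn2b and Scn4b below it. In PMCA mice the marker median was -3.14, and 26 members lay above it and 6 below. All 11 tested pore-forming genes lay above this median in control mice, and Scn2a1 alone lay below it in PMCA mice. Against the 11 markers of striatal projection neurons, with medians of -3.16 and -3.19, 9 of the 32 members lay below in control mice and 5 in PMCA mice. Of the pore-forming genes, Scn2a1 lay below that median in control mice and none did in PMCA mice. The pore-forming genes had medians of -2.39 in control and -2.20 in PMCA mice. The 16 tested auxiliary genes had medians of -2.87 and -2.55, with 13 and 14 called lower. How much of the channel reads in IP came from neuronal RNA was not tested.

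**Figure D3:**
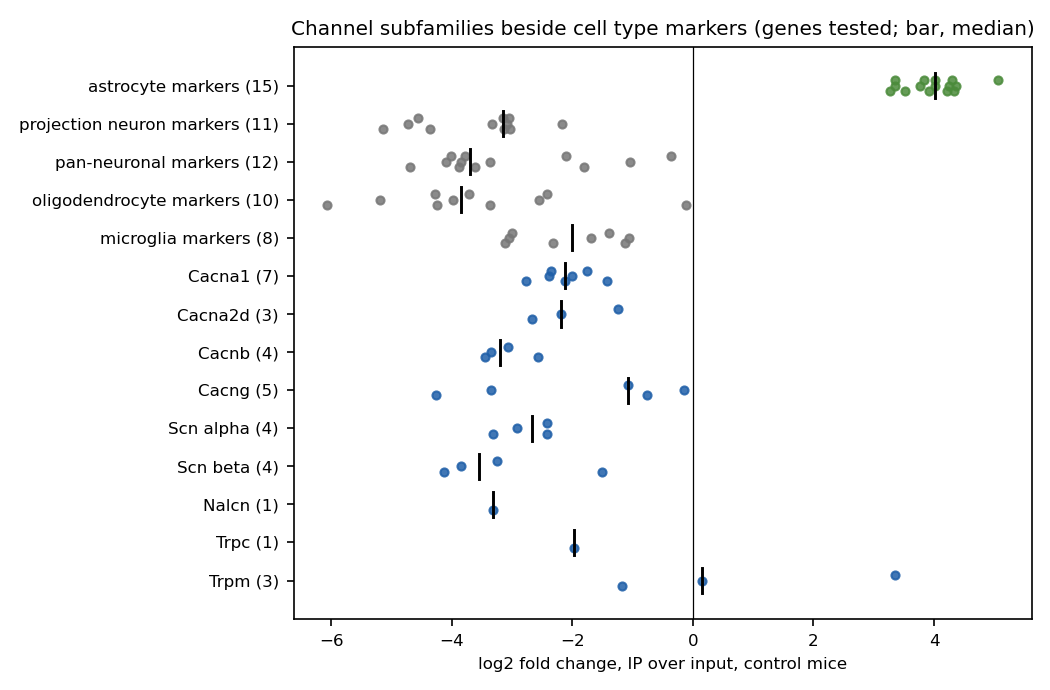
Log2 fold change of IP over input in control mice for each tested gene of the cell type marker lists (green and grey) and channel subfamilies (blue), with the number tested in brackets and the median as a black bar. Astrocyte markers lie right of 3, neuronal markers lie left of 0, and among channels Trpm3 alone lies with the astrocyte markers.

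Genes that regulate or assist these channels were taken from a fixed list of 45, of which 33 were listed in the data and 30 were tested. In control mice 20 were lower in IP and 6 higher, with a median of -2.10, and in PMCA mice 21 were lower and 5 higher, with a median of -1.76. The shares of all genes given above were 26.1% lower and 27.3% higher in control mice and 24.8% and 24.9% in PMCA mice, so the counts of higher genes stand near or below that background. All 8 tested regulators of calcium channels were lower in both treatments. They included Calm2 and Calm3, which encode calmodulin, a calcium sensor of the channel, at -3.11 and -1.09 in control mice and -3.31 and -1.13 in PMCA mice. The active zone genes Rims1 and Rimbp2, which hold channels at the release site, had -2.10 and -2.87 in control mice and -1.99 and -3.07 in PMCA mice. Cabp1, a calcium sensor, had 45 input reads and 1 IP read in control mice and 63 and 13 in PMCA mice. With so few IP reads Cabp1 could pass the filter only with the help of input libraries, so its calls are not independent of that choice. Gem, on the same list, was not tested and had more reads in IP. It had 3 input and 35 IP reads in control mice and 1 and 15 in PMCA mice.

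Of 10 regulators of sodium channels, 8 were lower and 2 were higher in both treatments. The intracellular fibroblast growth factor homologues Fgf11, Fgf12, Fgf13 and Fgf14, which bind the channel's tail, had log2 fold changes of -2.60, -1.76, -2.57 and -2.87 in control mice and -2.09, -1.98, -1.65 and -2.71 in PMCA mice. Ank3, the ankyrin that anchors channels at the axon initial segment, fell by 2.18 and by 1.80 on the log2 scale. Its relative Ank2 was higher in IP, at 1.64 and 1.61 (SE 0.14 each, adjusted p = 2.03e-10 and 3.57e-10, limma).

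The list of TRP relatives and partners was split, with 4 of 9 tested genes higher and 2 lower in control mice and 3 higher and 2 lower in PMCA mice. With 9 genes and 24.8% to 27.3% of all genes called in each direction, these counts stand close to the background and say nothing about the list. Itpr2, a calcium release receptor of internal stores, was higher at 2.98 in both treatments (SE 0.26, adjusted p = 1.69e-10 and 2.00e-10, limma), while its relative Itpr1 was lower at -2.77 and -2.46. Homer3, a scaffold that links receptors to these stores, was higher at 2.14 and 2.12, and its relative Homer1 was lower at -2.87 and -2.80. Pkd2, a polycystin channel related to the TRP family, was higher at 1.501 and 1.94, and Pkd1 was higher at 0.69 in control mice (adjusted p = 0.0126). Pkd1 did not pass in PMCA mice.

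No channel gene passed the threshold in a comparison of the calcium pump virus with the control virus. Limma called 0 of 25 tested members between PMCA and control IP, where 0.507% of all 7094 genes were called. It called 0 of 31 in input, where 0.0339% of 5895 genes were called, and 0 of 32 for the difference of enrichment between treatments, where 0.0371% of 8091 genes were called. At an unadjusted p under 0.05 it found 1, 3 and 2 members. Limma with voom weights on the recovered reads also called 0 in each, with 1, 3 and 3 at an unadjusted p under 0.05. The share of all genes at that unadjusted cutoff was not counted, so these counts are no result about the members. The smallest adjusted p was 0.243 in IP. The shares of all genes called are small, and a count of 0 among the members stands close to them.

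The intervals show how large a change these libraries could hide. In IP, 15 of 25 members had a 95% interval that lay within 2-fold in both directions, and in input 26 of 31 did. For the difference of enrichment 11 of 32 did. The fitted changes ran from -0.35 (Cacna2d1) to 0.83 (Cacnb1) in IP, with a median of 0.04, and from -0.83 (Trpc1) to 0.70 (Trpm2) in input, with a median of -0.08. Trpm3 had the narrowest interval in IP, with a change of -0.19 (95% interval -0.44 to 0.06, adjusted p = 0.544, limma). For Scn4b the IP change was -0.05 (-0.52 to 0.42), for Scn2a1 -0.09 (-0.60 to 0.43), and for Trpm7 0.14 (-0.33 to 0.62).

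**Figure D4:**
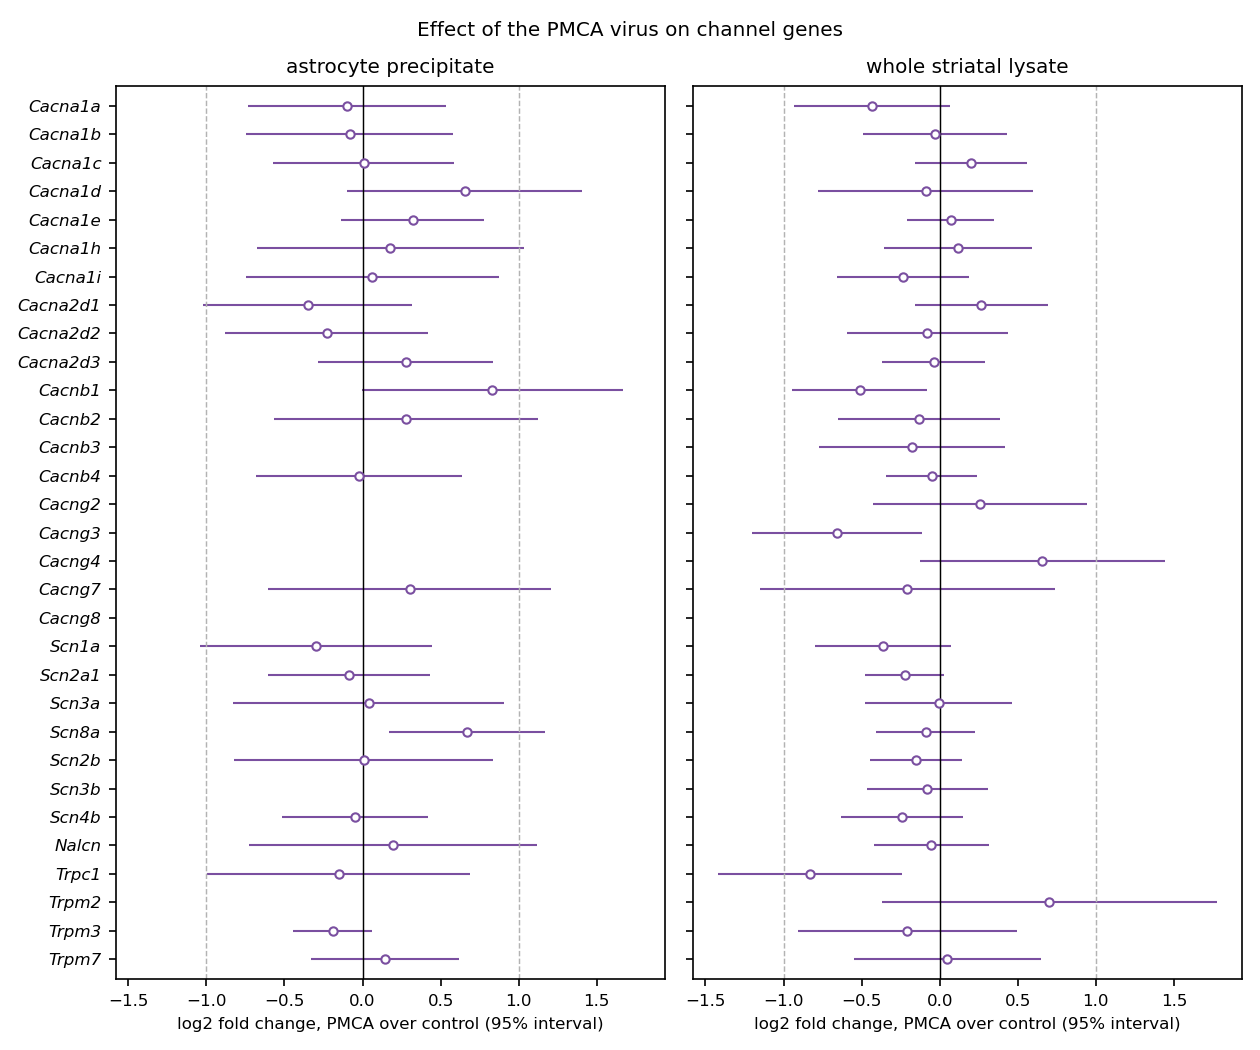
Log2 fold change of PMCA over control with 95% intervals, in astrocyte IP (left, 24 members) and input (right, 30 members); dashed lines mark 2-fold, and a row with no point was not tested in that fraction. No point was called, most intervals cross 0, and Scn8a in IP and Cacnb1, Cacng3 and Trpc1 in input do not.

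In IP the smallest p belonged to Scn8a. It stood at 5.53, 5.64, 5.93 and 5.85 log2 CPM in control IP and 6.41, 6.37, 6.09 and 6.74 in PMCA IP, so that every PMCA library lay above every control library. The log2 difference was 0.67 (SE 0.25, unadjusted p = 0.0101, adjusted p = 0.243, limma). In input the same gene had 8.59, 8.73, 8.78 and 8.51 in control mice and 8.61, 8.85, 8.49 and 8.29 in PMCA mice, which overlapped. The difference of its enrichment between treatments was 0.76 (SE 0.26, unadjusted p = 0.00703, adjusted p = 0.890). Of all 7094 genes tested in IP, 6.86% had libraries that did not overlap between treatments. Among the 25 members Scn8a and Cacnb1 had no overlap, which is near that share. Cacnb1 passed the filter in IP through the PMCA libraries, so its place in this count is not independent of the filter. Some markers of other cells also differed in IP. The summed pan-neuronal markers, given above, overlapped, and 1 of 9 tested, Tubb3, was called lower in PMCA IP at -1.19. Precursor markers, 6 genes, summed to 32.05 to 66.8 CPM in control IP and 57.3 to 138.6 CPM in PMCA IP, which overlapped. There, 2 microglia markers and 1 ependymal marker were called higher. The part of other cells in the Scn8a values was not tested.

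Cacnb1 followed a similar pattern. It reached the level of the filter in 1 control IP library and 4 PMCA IP libraries, so its difference in IP is not independent of the filter. It stood at 4.79, 4.03, 3.97 and 4.01 log2 CPM in control IP and 5.34, 4.81, 4.94 and 5.04 in PMCA IP, with no overlap, on 6 to 25 reads per library. In input it stood at 7.83, 7.53, 7.50 and 7.73 in control mice and 7.21, 6.76, 6.99 and 7.59 in PMCA mice, with the highest PMCA value inside the control range. The log2 difference was 0.83 in IP (SE 0.41, unadjusted p = 0.0508, adjusted p = 0.389, limma) and -0.51 in input (SE 0.21, unadjusted p = 0.0222, adjusted p = 0.9996). The difference of its enrichment between treatments was 1.34 (95% interval 0.57 to 2.11, unadjusted p = 0.00136, adjusted p = 0.774), the largest positive value of any member. Cacna1d had the third smallest p in IP, with a difference of 0.65 (SE 0.37, unadjusted p = 0.0859, adjusted p = 0.476), and its libraries overlapped.

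In input the smallest p belonged to Trpc1. Its control values ran from 6.29 to 6.90 and its PMCA values from 5.30 to 6.33 log2 CPM, so that 1 PMCA library, Y490, lay inside the control range. The log2 difference was -0.83 (SE 0.29, unadjusted p = 0.00773, adjusted p = 0.9996, limma), and in IP it was -0.15 (95% interval -0.997 to 0.69). Cacng3 had a difference of -0.66 in input (SE 0.26, unadjusted p = 0.0194, adjusted p = 0.9996), with 6.55 to 7.71 in control and 6.03 to 6.72 in PMCA mice. Cacng3 did not pass the filter in IP. Scn2a1, with the levels given above, was the one tested member whose input libraries did not overlap between treatments, from 9.64 to 9.71 in control and 9.31 to 9.60 in PMCA mice, where 2.53% of 5895 genes had no overlap. Its difference was -0.22 (SE 0.12, adjusted p = 0.9996, limma).

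Trpm2 had the third smallest p for the difference of enrichment, at -1.48 (95% interval -3.47 to 0.51, unadjusted p = 0.137, adjusted p = 0.913, limma). Its input change was 0.70 (95% interval -0.37 to 1.78). Trpm2 reached the level of the filter in 1 control input library and 3 PMCA input libraries, so this change is not independent of the filter. The 10 listed microglia markers summed to 569 to 989 CPM in control input and 806 to 2038 CPM in PMCA input, which overlapped. In IP they summed to 137 to 342 CPM in control mice and 356 to 1226 CPM in PMCA mice, which did not overlap. Limma called 2 of 6 tested microglia markers higher in PMCA IP and 0 of 8 in input. Of the 10 listed markers, Tmem119 and Aif1 were each at 0 reads in 3 control IP libraries and 1 PMCA IP library. The part of microglia in the Trpm2 values was not tested.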

How the data were processed

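RNA was measured in 16 libraries, input and IP of 8 mice. Per the labels' protocols, libraries were stranded and ribosomal RNA was depleted. The submitters' processing notes name mm10, STAR, HTSeq, edgeR and limma, without versions; the sources used here give no settings. The authors deposited log2 CPM for 13277 genes per library, without pooling. Whole reads were recovered from the steps of these values: 100% were whole within 0.01 reads. Floors and intervals on reads cover counting error only.

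The main test was limma 3.58.1 (R 4.3.3, statmod 1.5.0, variance trend, robust) on the deposited log2 values, over genes at the CPM of 10 reads in at least 4 libraries and 15 reads in all. Enrichment and its difference between treatments used 1 model over 16 libraries, and treatment the 8 IP or 8 input libraries. The unit stayed log2, so voom weights on the recovered reads served as the count-based alternative, and no count model was run. Other alternatives were no filter, a filter at 20 reads, a prior count of 2, library totals without TMM, no trend, leaving out each mouse, and the mouse as block.

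The labels put input and IP on the same mouse. Deviations from group means of paired libraries correlated over 8091 genes with r = 0.062, 0.017, 0.013 and 0.039 in control and 0.04, 0.098, 0.084 and -0.029 in PMCA mice.

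Members, associated genes and markers were chosen with earlier results of these data known. Described in full were members called in any comparison, the highest member of each subfamily, and the 3 members with the smallest p in each treatment comparison; associated genes were named when called, and a few others are named with their values. Scripts were tested on simulated data. Promoter and miRNA sequences are from RefSeq (GRCm38.p6), matched by symbol for 34 of 45 members. Results of some genes are not reported here.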

Additional observations from a re-analysis of the deposited data

Results flagged for a closer look

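Each of 128 sets of 4 libraries was checked for a single library far from the other 3, and 6 sets had one; chance gives about 1 in 20. Cacna1e in control IP was lowest in Y482 at 6.22 log2 CPM, with the others between 7.08 and 7.17. Cacnb1 in control IP was highest in Y481 at 4.79, with the others between 3.97 and 4.03. Cacnb2 in control IP was highest in Y483 at 5.13, with the others between 4.41 and 4.52. Trpc1 in control IP was highest in Y483 at 5.04, with the others between 4.50 and 4.58. Trpm3 in control IP was lowest in Y485 at 8.91, with the others between 9.29 and 9.36. Scn2a1 in control input was highest in Y481 at 9.71, with the others between 9.64 and 9.65.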

How the results depend on the processing

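The counts of members called kept within 1.5 times the main count under every alternative run. Leaving out each mouse gave 26 to 27 members lower in IP in control mice and 26 to 27 in PMCA mice, 1 higher in each, and 0 in the treatment comparisons and the difference of enrichment. With the mouse as replicate block, 26 members were lower in control mice and 27 in PMCA mice, with 1 higher in each and 0 for the difference of enrichment, and the block changed no call of a member. Without the low-value filter 29 and 28 members were lower, and with a filter at 20 reads 26 and 25. Over all genes, the count between treatments in IP was 36 and moved to 23 with voom weights and 0 without the variance trend, and to between 14 (without Y483) and 50 (without Y487) with 1 mouse left out; in input it was 2 and ran from 0 to 10, the latter without Y481. No called member that was still tested lost its call under any alternative run; lower counts come from members that the filter then left out. Signs turned for genes that were not called: Cacng8 in control mice without Y483 (0.1677) and without Y485 (0.0354), over a range of -0.4982 to 0.1677 with 1 mouse left out; Trpm7 in control mice with library totals (-0.0582) and without Y481 (-0.0259), over a range of -0.0259 to 0.2546; Trpm7 in PMCA mice with library totals (-0.0189); and Cacng7 in PMCA mice without Y486 (0.0568), over a range of -0.5724 to 0.0568. The cause was not tested. Library totals in place of TMM sizes moved the median of all genes from 0.06 to -0.14 in control and from 0.02 to -0.24 in PMCA mice. Depth limits the least-read members: with 1 read worth up to 4.46 CPM, 13 of 45 could not be tested. Read ratios of Trpc4, Trpc6 and Trpv2 without each mouse were chosen after seeing the data; none turned direction.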
